A study of Apis mellifera with 6 samples.

Results

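Molecular chaperones of the honey bee midgut are described here through 5 genes, Hsc70-3, Ppib, Hsc70-4, Hsp90 and Cdc37, out of 10013 genes measured. They were taken by name from the gene identifiers of the deposited tables and were each present once. Hsc70-3 and Ppib encode proteins known to work in the endoplasmic reticulum (ER). Hsc70-4, Hsp90 and Cdc37 encode proteins known to work in the cytosol. This placement comes from what is known of the proteins in flies and mammals and was not measured in these samples.

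RNA from the midgut of honey bees (Apis mellifera) was sequenced after selection of polyadenylated mRNA. The 3 tunicamycin samples (numbered 2, 3 and 4) came from bees given 24 µM of the drug in sugar solution with 0.5% DMSO, the solvent, over 24 hours. The 3 control samples (numbered 1, 2 and 3) came from bees given the same solvent concentration without the drug for the same time. Values per sample are given below in the order of those numbers. The labels state no age, caste, colony or number of bees for a sample, and do not say that samples came from separate bees or cages, so a p-value here speaks of the variation among 6 libraries and not with certainty of that among bees.

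Chaperones bind unfolded proteins and help them reach or keep their shape. The cell keeps separate sets for the cytosol and for the ER, where secreted and membrane proteins fold and receive their N-linked sugars. Tunicamycin blocks the first step in building those sugars, so unfolded protein builds up in the ER. Cells answer with the unfolded protein response, a signalling system of the ER membrane that raises the genes for ER chaperones, with BiP as its best known target. One of its sensors is IRE1, named in the title of the study. Many, but not all, cytosolic chaperones answer to another system, the heat shock response. The midgut is a secretory tissue that makes digestive enzymes and the peritrophic lining.

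The libraries held between 22763496 and 26278751 reads over the listed genes, recovered from the deposited normalized values. Markers of the tissue and of other cells were mapped by name where possible. The alpha-glucosidases AGLU2, Hbg2 and Hbg3 summed to between 1103657 and 1592447 normalized reads in controls and between 701920 and 1302930 in tunicamycin. They were sought as markers of midgut enterocytes, and whether each gene is particular to those cells was not measured here. The 5 fat body genes summed to between 690 and 918 in controls and between 448 and 790 in tunicamycin, and the single hemocyte gene PPO lay between 59.6 and 71.9 and between 42.5 and 67.9. The 2 muscle genes (1835 to 3659 and 2611 to 4514), the 3 enteroendocrine and neuronal genes (619 to 750 and 709 to 1118) and the 2 royal jelly protein genes (791 to 1651 and 890 to 1226) also had overlapping sums. The markers of Malpighian tubules and trachea were not met by name. None of the 16 markers found was at 0 in any sample, none passed the limma test described next, and their part in the results was not tested. The smallest unadjusted limma p was 0.00816 among the alpha-glucosidases, 0.0103 among the fat body genes and 0.0408 among the enteroendocrine and neuronal genes. For the muscle, hemocyte and royal jelly protein genes it was 0.235, 0.411 and 0.300. In a whole midgut, fewer cells of a type and less RNA per cell cannot be told apart.

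Each gene was compared between the groups with limma-trend on log2(normalized reads + 1), fitted across all genes, with Benjamini-Hochberg adjustment and a threshold of 0.05. At that threshold 1.13% of all genes passed, and 1.06% passed with higher values in tunicamycin. Of the 5 chaperones 1 passed, Hsc70-3, and it was higher. Beside these shares, 15.5% of all genes had an unadjusted limma p under 0.05, as did 3 of the 5 chaperones.

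Hsc70-3, the ER member of the HSP70 family and the insect counterpart of BiP, rose strongly under tunicamycin. It was at 68417, 35140 and 25372 normalized reads in the controls and at 211942, 267564 and 317129 in the tunicamycin samples. The lowest tunicamycin sample lay far above the highest control, and the controls differed among themselves, with control 1 well above the other two. The log2 difference was 2.73 (SE 0.40), which is a 6.66-fold rise with a 95% interval of 3.49-fold to 12.70-fold (limma adjusted p = 0.0279). By unadjusted p it ranked 69 of the 10013 genes, and by the size of the rise it ranked 22. The call was also made by edgeR (adjusted p = 0.0395) and by DESeq2 (adjusted p = 1.65e-11) on the recovered reads, where 0.939% and 5.51% of the genes tested were called. Without control 1 the log2 difference was 3.13 (limma adjusted p = 0.0100). When any other sample was left out in turn the limma adjusted p lay between 0.0671 and 0.135. With both control 1 and tunicamycin 3 left out, an alternative chosen after seeing the data, the log2 difference was 3.12 (limma adjusted p = 0.0188).

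Ppib, cyclophilin B, speeds the turning of proline bonds in folding proteins and in mammals works in the ER lumen. It was at 9906, 7672 and 8712 normalized reads in the controls and at 13041, 13983 and 14542 in the tunicamycin samples. The groups did not overlap, and the tunicamycin samples lay closer together than the controls. The log2 difference was 0.67 (SE 0.14), or 1.59-fold with a 95% interval of 1.27-fold to 1.99-fold, and the gene did not pass over all genes (limma adjusted p = 0.0878). DESeq2 called it (adjusted p = 5.95e-04), edgeR did not (adjusted p = 0.105), and limma called it without control 1 (adjusted p = 0.0431), a fit in which 2.02% of all genes were called. Over the whole data set 11.0% of the genes had every tunicamycin sample above every control, as Hsc70-3 and Ppib did.

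**Figure D1:**
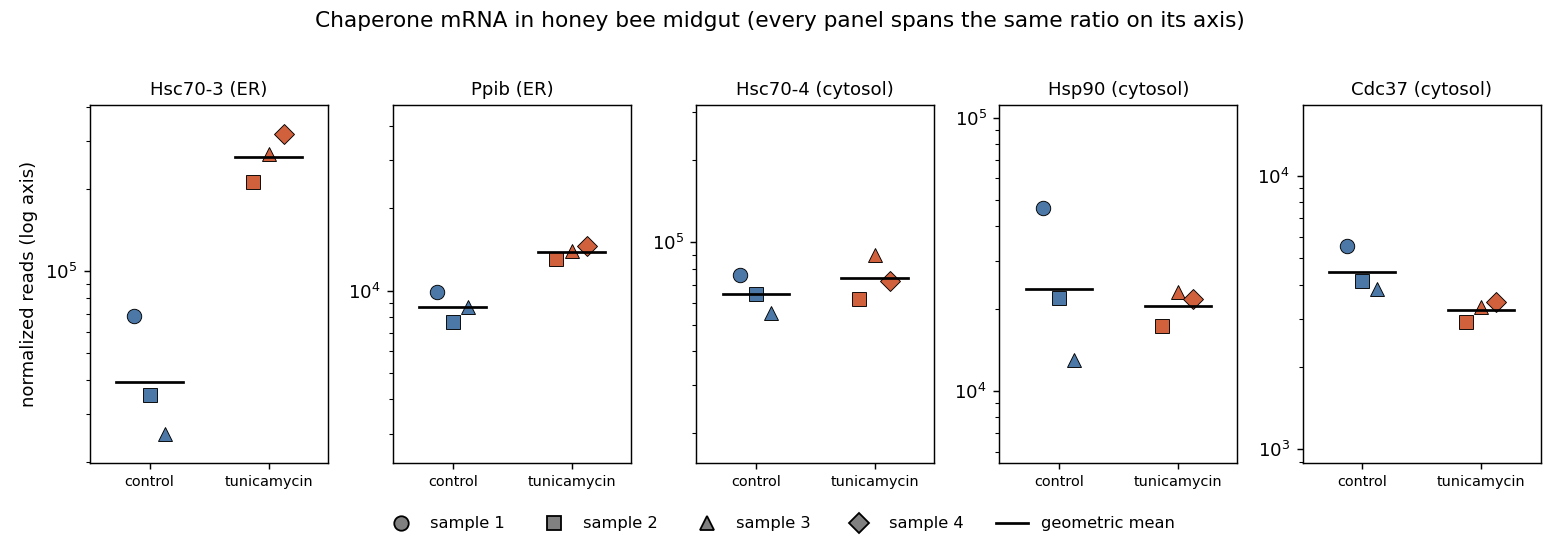
Normalized reads of the 5 chaperone genes in each sample, on a log axis, with controls in blue, tunicamycin samples in red, the marker shape giving the sample number and the line the geometric mean of the 3 samples. Hsc70-3 and Ppib lie higher in every tunicamycin sample than in any control, Hsc70-4 and Hsp90 overlap, and Cdc37 lies lower in every tunicamycin sample.

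Among the cytosolic chaperones no member passed. Hsc70-4, known in flies as the constitutive HSP70 of the cytosol, was at 76162, 64725 and 54952 normalized reads in the controls and at 61999, 90219 and 72029 in the tunicamycin samples. The groups overlapped, with tunicamycin sample 2 below controls 1 and 2. The log2 difference was 0.19 (SE 0.24; limma adjusted p = 0.745), and its 95% interval, from 0.77-fold to 1.69-fold, does not reach the lower bound of the Hsc70-3 rise. With 1 sample left out the log2 difference ranged from 0.05 without tunicamycin 3 and 0.07 without control 3 to 0.31 without control 1 and 0.32 without tunicamycin 2. A small rise or fall of Hsc70-4 remains possible within that interval.

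Hsp90, listed with the synonym Hsp83, encodes the chaperone that finishes the folding of kinases and hormone receptors. It was at 46743, 21939 and 12954 normalized reads in the controls and at 17217, 22930 and 21632 in the tunicamycin samples. The tunicamycin samples all fell inside the range of the controls, which spanned 3.61-fold from the lowest to the highest. The log2 difference was -0.21 (SE 0.43; limma adjusted p = 0.853), with a 95% interval from 0.43-fold to 1.73-fold. Its sign turned without control 1, to 0.28 (limma adjusted p = 0.610), so these samples give no direction for Hsp90.

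Cdc37 is the co-chaperone that brings protein kinases to Hsp90. It was at 5540, 4129 and 3874 normalized reads in the controls and at 2923, 3320 and 3474 in the tunicamycin samples. Every tunicamycin sample lay below every control, as in 10.7% of all genes. The log2 difference was -0.46 (SE 0.16), or 0.72-fold with a 95% interval of 0.56-fold to 0.94-fold. This did not pass over all genes in limma, edgeR or DESeq2 (adjusted p = 0.240, 0.252 and 0.131). Cdc37 and Ppib thus both had groups that do not overlap and a limma call that was not reached, with opposite signs. They differed in that DESeq2 called Ppib (adjusted p = 5.95e-04) and not Cdc37. The unadjusted limma p was 0.00174 for Ppib and 0.0219 for Cdc37.

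**Figure D2:**
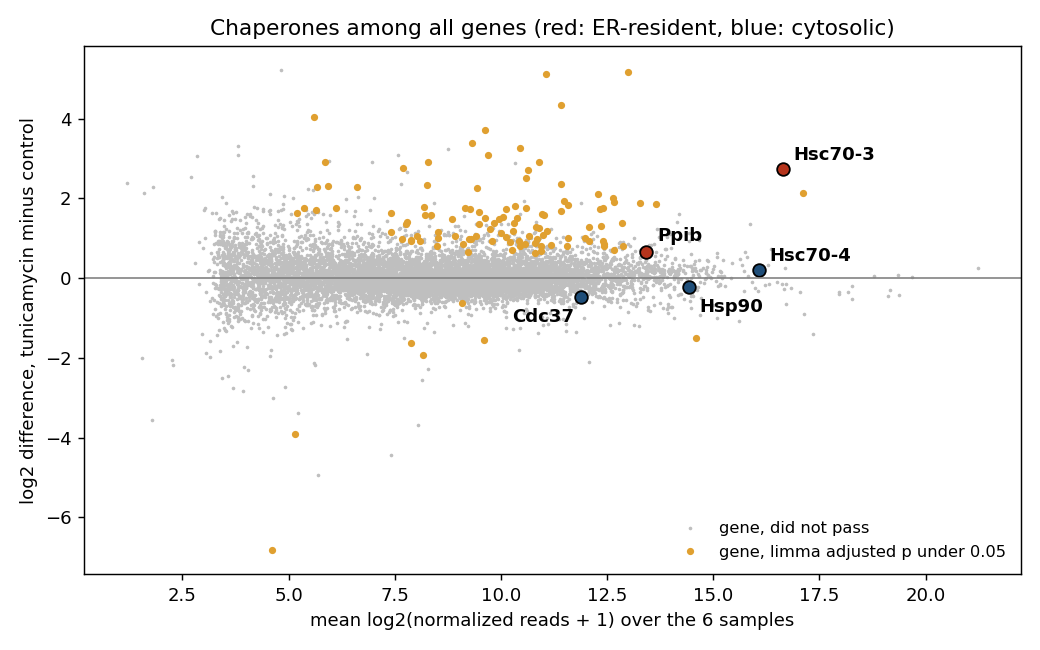
Each point is 1 of the 10013 genes, placed by its mean log2(normalized reads + 1) over the 6 samples and by its log2 difference between tunicamycin and control; genes past the limma threshold are in yellow, ER-resident chaperones in red and cytosolic ones in blue. Hsc70-3 stands at 2.73 among genes of high read number, and the other 4 chaperones lie between -0.46 and 0.67.

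The place of these genes in each sample was read from shares of the reads recovered over the listed genes. Reads outside the listed genes are not part of these totals. Such shares depend on transcript length as well as on mRNA number and so compare samples but not genes. Hsc70-3 took 0.294%, 0.144% and 0.105% of the reads of the controls and 0.854%, 1.01% and 1.39% of those of the tunicamycin samples. Its mean share went from 0.181% ± 0.0995 to 1.09% ± 0.278 (SD, n = 3 each). This gain of 0.906 percentage points was the 3rd largest of all genes, out of gains that summed to 11.1 points.

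Ppib took between 0.0314% and 0.0425% of the reads in controls and between 0.0526% and 0.0639% in tunicamycin, with no overlap. Hsc70-4 took between 0.228% and 0.327% in controls and between 0.250% and 0.341% in tunicamycin, so its ranges overlapped almost whole. Hsp90 took 0.201%, 0.0897% and 0.0538% of the reads of the controls and 0.0694%, 0.0867% and 0.0951% of those of the tunicamycin samples. Control 1 lay highest by a wide margin, and the other five overlapped. Cdc37 took between 0.0161% and 0.0238% in controls and between 0.0118% and 0.0153% in tunicamycin. The 95% Wilson intervals of these shares, which cover counting error only, had a half-width of at most 3.79% of the share, reached by Cdc37 in tunicamycin sample 2 (2682 reads). In exact permutation tests over the samples (two-sided), the shares of Hsc70-3, Ppib and Cdc37 gave p = 0.10, the smallest that 3 against 3 samples allow, and those of Hsc70-4 and Hsp90 gave p = 0.60 and 0.80.

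**Figure D3:**
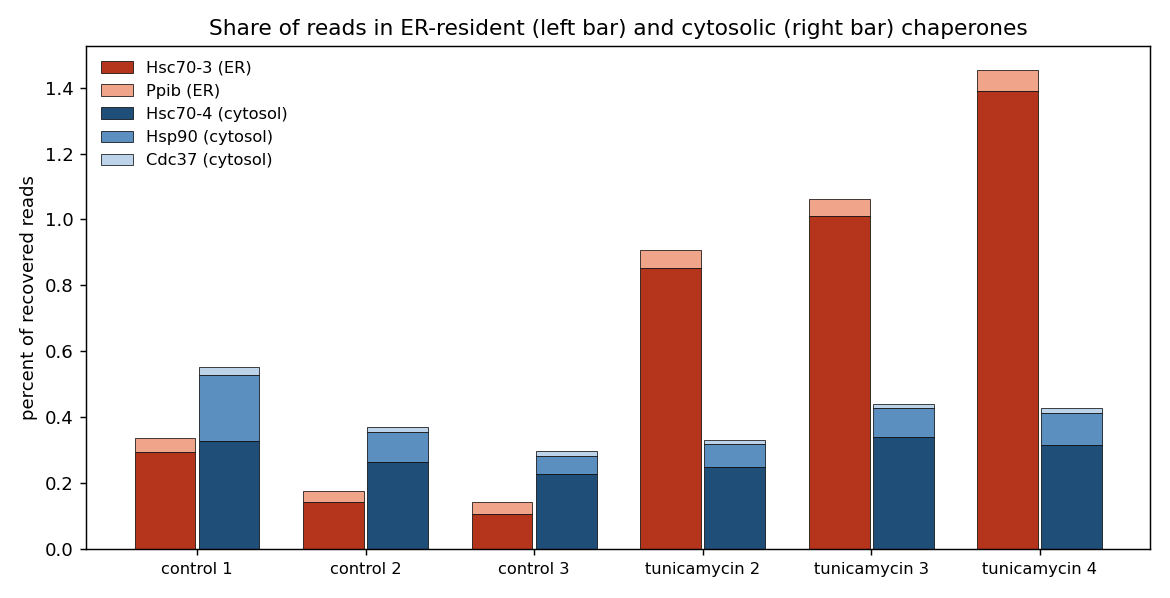
Percent of the recovered reads of each sample in the ER-resident chaperones (left bar, red) and in the cytosolic ones (right bar, blue), stacked by gene. The ER bar reaches 0.141% to 0.336% in the controls and 0.907% to 1.46% in the tunicamycin samples. Since shares depend on transcript length, bars of one colour compare samples, and the height of red against blue within a sample does not compare mRNA numbers.

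Taken by compartment, the ER pair held 0.336%, 0.175% and 0.141% of the reads of the controls and 0.907%, 1.06% and 1.46% of those of the tunicamycin samples. The cytosolic trio held 0.551%, 0.371% and 0.298% in the controls and 0.331%, 0.440% and 0.427% in the tunicamycin samples. The ER sums separated the groups, and the cytosolic sums overlapped. Within a sample, the ER sum divided by the cytosolic sum was 0.610, 0.472 and 0.475 in the controls and 2.74, 2.42 and 3.41 in the tunicamycin samples, a log2 difference of 2.46. This ratio needs no scaling between libraries. It was made almost wholly by Hsc70-3, which held between 24.0% and 33.1% of the reads of the 5 genes in controls and between 67.2% and 74.0% in tunicamycin. No p is given for sums over the chaperones, since they were chosen with results of these samples known.

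Ratios of single genes showed where the compartments parted. The ER HSP70 over the cytosolic HSP70 (Hsc70-3 over Hsc70-4) was 0.898, 0.543 and 0.462 in the controls and 3.42, 2.97 and 4.40 in the tunicamycin samples. The highest control ratio was therefore well under the lowest tunicamycin ratio, with a log2 difference of 2.54. Hsc70-3 over Hsp90 was 1.46, 1.60 and 1.96 in the controls and 12.3, 11.7 and 14.7 in the tunicamycin samples. In this ratio control 1 was the lowest of the controls, although it had the most reads of both genes. Hsc70-3 over Ppib, both of the ER, also differed without overlap, from between 2.91 and 6.91 in controls to between 16.3 and 21.8 in tunicamycin.

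The second ER gene did not part from every cytosolic one. Ppib over Hsc70-4 lay between 0.119 and 0.159 in controls and between 0.155 and 0.210 in tunicamycin, and Ppib over Hsp90 between 0.212 and 0.672 and between 0.610 and 0.757, so both overlapped. Ppib over Cdc37 did not overlap, at 1.79, 1.86 and 2.25 in the controls and 4.46, 4.21 and 4.19 in the tunicamycin samples. Among the 6 ratios of an ER gene to a cytosolic gene, 4 had groups that did not overlap. These reached p = 0.10 in the exact permutation test, the smallest it allows. The ratios share genes, so they restate the values of single genes and are not separate results. How many of all gene pairs separate in this way was not counted, and the genes were chosen with results of these samples known. The other two gave p = 0.20 (Ppib over Hsc70-4) and p = 0.30 (Ppib over Hsp90) in that exact test, and none of the 6 can fall under 0.05 in this design, before or after adjustment. Within the cytosol, Cdc37 over Hsp90 lay between 0.119 and 0.299 in controls and between 0.145 and 0.170 in tunicamycin, and Hsc70-4 over Hsp90 between 1.63 and 4.24 and between 3.33 and 3.93.

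The spread within the groups differed from gene to gene. The SD of the log2 values of Hsp90 was 0.93 in controls and 0.22 in tunicamycin, and that of Hsc70-3 was 0.73 and 0.29. For Cdc37 it was 0.28 and 0.13 and for Ppib 0.18 and 0.08, while for Hsc70-4 it was 0.24 and 0.27. Over the 2693 genes with a mean of at least 1000 normalized reads, the median SD was 0.17 in controls and 0.16 in tunicamycin. Of those genes 1.93% had a larger control SD than Hsp90 and 3.42% a larger one than Hsc70-3. For Cdc37, Hsc70-4 and Ppib these shares were 25.5%, 33.3% and 45.3%, so their controls were not unusually spread. How many of all genes had a larger SD in controls than in tunicamycin was not counted.

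Control 1 was the highest control and tunicamycin sample 2 the lowest tunicamycin sample at all 5 chaperones, by normalized reads and by share of reads. Over the same 2693 genes control 1 was the highest control in 40.7%, tunicamycin sample 2 was the lowest of its group in 31.7%, and both held in 15.5%. Against the mean of the other two controls, control 1 stood at 2.68 times for Hsp90 and 2.26 times for Hsc70-3, and 0.743% and 1.41% of those genes had a higher ratio. For Cdc37, Hsc70-4 and Ppib it stood at 1.38, 1.27 and 1.21 times. The 2 samples were deposited side by side in the same table. No cause of these differences was tested.

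Because of this, the difference within that table was the lowest of the 3 for each gene. Hsc70-3 was 3.10 times as high in tunicamycin sample 2 as in control 1, 7.61 times in tunicamycin 3 as in control 2 and 12.50 times in tunicamycin 4 as in control 3. Ppib was at 1.32, 1.82 and 1.67 times in the same order, above 1 in each. Hsc70-4 was at 0.81, 1.39 and 1.31 times, Hsp90 at 0.37, 1.05 and 1.67 times and Cdc37 at 0.53, 0.80 and 0.90 times. The ER genes and Cdc37 thus kept their sign in the 3 tables, and Hsc70-4 and Hsp90 did not. For the ER genes and Cdc37 this follows from groups that do not overlap, so it is not a separate result. The labels do not say that the samples of a table share bees, a cage or a day.

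**Figure D4:**
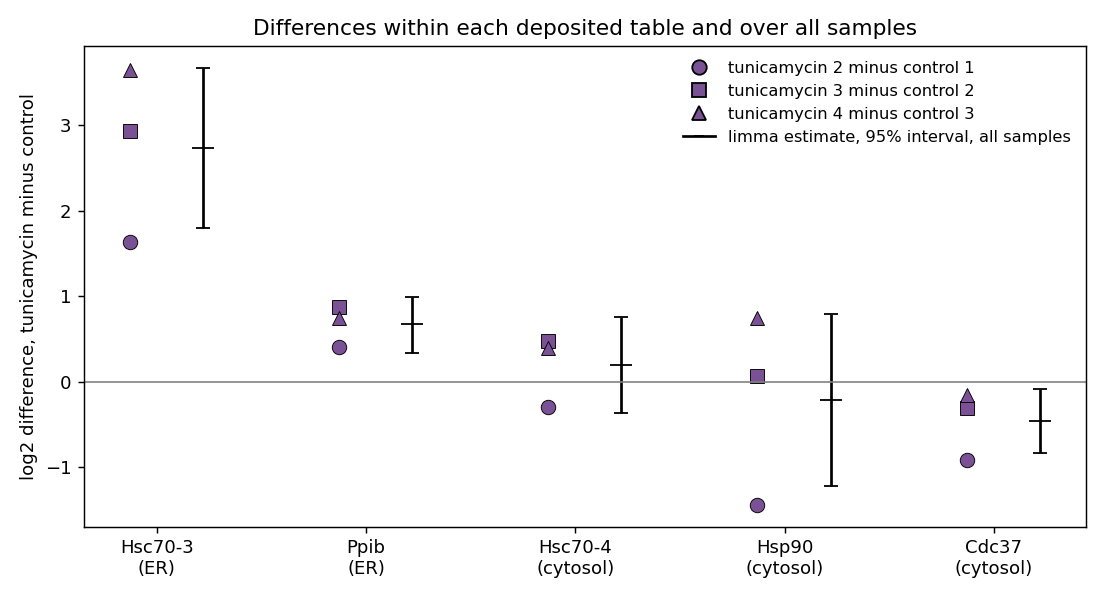
Log2 difference between the tunicamycin and the control sample of each deposited table (purple markers) for the 5 chaperones, beside the limma estimate over all 6 samples with its 95% interval (black). The table with control 1 and tunicamycin sample 2 gives the lowest marker for every gene, from 1.63 for Hsc70-3 to -1.44 for Hsp90.

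Other chaperones could be looked up by symbol only. From lists of 36 ER folding, 26 cytosolic HSP70 and HSP90, 19 chaperonin and prefoldin, 8 small heat shock, 11 mitochondrial, and 13 cyclophilin and FKBP symbols, the ER list was met by Hsc70-3 and Ppib, the cytosolic list by Hsc70-4, Hsp90 and Cdc37, the mitochondrial list by Hsc70-5 and the cyclophilin list by Ppib again, and the chaperonin and small heat shock lists by none. Hsc70-3 was therefore the single gene of these lists past the threshold in limma. The ER and cytosolic lists were met by no gene beyond the 5 chaperones, so their medians only restate the values above. The median log2 difference of 1.70 over the 2 ER genes is the midpoint of Hsc70-3 and Ppib. That of -0.21 over the 3 cytosolic genes is the value of Hsp90. The median over all genes was 0.00. Most genes of the bee carry LOC numbers in these files, and no member of this family was named from such a number. Hsc70-5, the HSP70 of mitochondria, was at 5501, 5132 and 4982 normalized reads in the controls and at 7164, 10648 and 11752 in the tunicamycin samples. All tunicamycin samples lay above all controls, and the log2 difference of 0.89 (SE 0.19) did not pass in limma (adjusted p = 0.0939) or edgeR (adjusted p = 0.0998) and passed in DESeq2 (adjusted p = 7.85e-04).

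The genes most like Hsc70-3 over the 6 samples, by Pearson correlation of log2 values among 7434 other genes with a mean of at least 100 normalized reads, were LOC410340 (r = 0.998), LOC726958 (0.997) and LOC409465 (0.995). The likest with a symbol were CytC (cytochrome c, 0.995), Cbs (cystathionine beta-synthase, 0.988), ecd (0.986), MsrA (methionine sulfoxide reductase, 0.973) and Ppib (0.970). Ppib thus held place 78 on this scale, while Hsc70-4 (0.605), Hsp90 (0.120) and Cdc37 (-0.571) were far down. CytC was at 6309, 3925 and 3902 normalized reads in the controls and at 10656, 11690 and 13544 in the tunicamycin samples, and it passed (log2 1.38, SE 0.21; limma adjusted p = 0.0335). MsrA, which repairs oxidised methionine in proteins, was at 933, 686 and 528 and at 4161, 7483 and 4565 and also passed (log2 2.90, SE 0.28; limma adjusted p = 0.00786). Both had control 1 as their highest control. These correlations are descriptions over 6 samples that share the treatment contrast, and 150 genes had r of at least 0.95. LOC409465 was at 1180, 476 and 419 normalized reads in the controls and at 3735, 4015 and 4445 in the tunicamycin samples, so it shared with Hsc70-3 a control 1 well above the other controls. Such likeness in the controls is part of what these genes were chosen for.

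The genes most like Hsp90 were LOC100578556 (r = 0.987), LOC552663 (0.987) and LOC408990 (0.981), and with a symbol Ets97D-like (0.968), 18-w (0.933), ILP-2 (0.928), Syt20 (0.914) and Ube2g1 (0.838). In all 8 of them control 1 was the highest sample, as it was for Hsp90. None passed in limma. Both traits largely follow from choosing these genes by their likeness to Hsp90 over the same samples. Cdc37 had r = 0.708 with Hsp90 and Hsc70-4 had 0.625.

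On the reference assembly Amel_HAv3.1 no annotated gene overlaps any of the 5. The files do not name their build, so only the order of genes was used. The neighbour on one side of Hsc70-3, LOC413708, was higher in tunicamycin too. It was at 951, 753 and 794 normalized reads in the controls and at 2517, 2654 and 3378 in the tunicamycin samples (log2 1.77, SE 0.15; limma adjusted p = 0.00590). The groups did not overlap, and control 1 was again the highest control. The neighbour on the other side, LOC724212, was at log2 0.48 (limma adjusted p = 0.466). LOC413708 was singled out after its values were seen, and the files give it no name or role. The 7 measured neighbours of the other 4 chaperones lay between log2 -0.31 and 0.08, and none passed.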

How the data were processed

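The authors deposited 3 tables with 1 control and 1 tunicamycin column each and the same 10013 genes. The authors made this signal by scaling whole reads per gene with 1 factor for each sample, as the deposited values show: in every column 100% of the values are an integer times 1 constant (tolerance 0.001 of a read), and the median ratio to the geometric mean was 1.0030 in all 6 samples, so samples can be compared across tables. Tools listed in the submitters' processing notes are DESeq2, STAR, Subread and Trimmomatic 0.36. The sources used here state no settings, genome build or strandedness, so HSP70 genes of near-identical sequence could share reads.

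Under R 4.3.3, limma 3.58.1 fitted log2(value + 1) with a trended prior and group as the sole term, as the main test. A minimum mean value of 1 removed 0 genes. edgeR 4.0.16 (TMM scaling, quasi-likelihood), DESeq2 1.42.0 and limma-voom on the recovered reads were alternatives; exact permutation tests used scipy 1.17.1. Folds come from that same log2 scale, which understates the change of low genes. The code was tested on simulated counts with known changes. There 40 of 199 DESeq2 calls were false, against 11 of 138 for limma-trend and 9 of 133 for edgeR. Of the true 2-fold changes DESeq2 called 64.0%, limma-trend 40.0% and edgeR 38.0%. A call by DESeq2 alone is thus weaker, and a 2-fold change can be missed by the other tools. The members and lists were chosen with earlier results of these data known. Besides the members, all matched genes of the chaperone lists were named, together with the 5 genes with a symbol and the 3 without that correlated best with Hsc70-3 and with Hsp90. Promoter and protein sequences were not analysed here.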

Additional observations from a re-analysis of the deposited data

How the results depend on the processing

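Hsc70-3 stayed higher in all 18 alternatives and passed in 11, with log2 values from 2.42 to 3.13, which is also the range with 1 sample left out. The alternative without a filter on low values equals the main test, since the minimum removed 0 genes. All alternatives reuse the same samples, so these counts do not measure independent support. The call was lost with a replicate block for the 3 tables (2.73; limma adjusted p = 0.101), with a replicate block for shared replicate numbers (3.00; adjusted p = 0.101), and when any 1 sample other than control 1 was left out. Deviations from the group means correlated at 0.05, 0.15 and 0.05 within tables and at -0.12 and -0.10 between samples of the same number, so not every pair was above 0.1 and the samples were treated as unpaired; whether a table marks samples that belong together was not tested. Ppib passed with DESeq2 (0.66), without control 1 (0.76; range with 1 sample left out 0.58 to 0.76) and without control 1 and tunicamycin 3 (0.75), an alternative chosen after seeing the data. Hsp90 turned to 0.24 with the block by shared number and to 0.20 without those 2 samples, and ranged from -0.65 to 0.28 with 1 left out; its share of reads turned from -0.0310 to 0.0105 percentage points without both and ranged from -0.0614 to 0.0120 with 1 left out. Hsc70-4 (0.05 to 0.32 with 1 left out) and Cdc37 (-0.57 to -0.31) kept their sign and did not pass in any of the 18.

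The ER to cytosolic log2 ratio was 1.86 when each gene weighed the same and 2.69 without control 1 and tunicamycin 3. Without the 10 largest genes in the total the ER share gained 1.30 points. The cytosolic share, -0.00731 points, turned to 0.0445 without the 2 samples, and ranged from -0.0618 to 0.0649 with 1 left out, with 0.0269 without tunicamycin 2. Of all genes 106 were higher in the main test, against 401 with DESeq2, 69 on total reads, 41 and 4 with the blocks, 263 without the 2 samples and 18 to 180 with 1 left out; 7 were lower, against 117 with DESeq2, 3 and 0 with the blocks, 99 without the 2 samples and 1 to 22 with 1 left out. Under the block by shared number 1054 genes had an unadjusted limma p under 0.05. The causes were not tested. The fewest reads of any of the 5 genes in a sample were 2682, for Cdc37 in tunicamycin 2.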

Other observations

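A pair of genes tied to these chaperones by role was looked at after the tables were opened. Slc35b1, whose mammalian counterpart carries ATP into the ER, where BiP uses it, was at 2127, 1660 and 1787 normalized reads in the controls and at 1873, 2672 and 2313 in the tunicamycin samples. The groups overlapped, and the log2 difference of 0.29 (SE 0.16) did not pass in limma (adjusted p = 0.442). PIH1D1, a subunit of a complex that works with Hsp90, was at 207, 177 and 206 normalized reads in the controls and at 147, 184 and 196 in the tunicamycin samples. These groups overlapped too (log2 -0.17, SE 0.17; limma adjusted p = 0.673).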
